A study of Mus musculus with 8 samples.

Results

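The miR-99, miR-100 and miR-125 miRNAs were followed in kidneys of mice given the immunosuppressant tacrolimus and in kidneys of control mice. The 5 miRNAs, mmu-miR-99a-5p, mmu-miR-99b-5p, mmu-miR-100-5p, mmu-miR-125a-5p and mmu-miR-125b-5p (written below without the mouse prefix), were chosen by name, with every probe of each, which gave 5 of 1023 mouse miRNA names and 10 of 2645 mouse probes. Whole kidneys came from CD-1 mice, an outbred stock. A total of 4 arrays held RNA of mice that received tacrolimus at 1 mg per kg per day over 28 days, and 4 arrays held RNA of mice that received physiological serum. Total RNA of each sample (0.1 µg, RNA integrity number 9) was hybridised in 1 colour to an Agilent mouse miRNA array. The labels give no age or sex. Nothing in them ties a replicate to a mouse of its own, so the p-values below weigh differences against a spread that may be technical. The series title places the study in tacrolimus nephrotoxicity, and the comparison asks whether these miRNAs differed between treated and control kidneys.

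A miRNA is cut from a hairpin and guides a silencing complex to messenger RNAs that pair with its seed, the bases 2 to 8. miR-99a, miR-99b and miR-100 form a family whose targets include the growth kinase mTOR. miR-125a and miR-125b are the mammalian relatives of lin-4, the first miRNA described in worms, and restrain regulators of differentiation, inflammation and cell death. In vertebrate genomes members of both families lie beside let-7 genes in small clusters, and the miRNAs of a cluster can come from a shared primary transcript.

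The mature sequences below, from RefSeq (GRCm38.p6), show which of the 5 share a seed. Capitals mark bases 2 to 8, and all 5 members matched an entry.
miR-99a-5p: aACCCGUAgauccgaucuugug
miR-99b-5p: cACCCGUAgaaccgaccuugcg
miR-100-5p: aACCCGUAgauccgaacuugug
miR-125a-5p: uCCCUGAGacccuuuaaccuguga
miR-125b-5p: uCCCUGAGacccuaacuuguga
The first 3 share the seed ACCCGUA and the other two share CCCUGAG. With positions counted from the 5′ end, miR-99a-5p and miR-100-5p differ by the single substitution U16A. miR-99a-5p and miR-99b-5p differ by A1C, U11A, U16C and U21C. miR-125a-5p (24 bases) and miR-125b-5p (22 bases) are 3 edits apart, insertions and deletions included.

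The genes lie in 3 clusters of the RefSeq annotation (GRCm38.p6). Mir99b, Mirlet7e and Mir125a lie within 692 bases at chr17:17830188-17830879, inside the interval of the protein-coding gene Spaca6. Mir99a, Mirlet7c-1 and Mir125b-2 span 47408 bases at chr16:77598936-77646343, with no annotated gene around them. Mir100, Mirlet7a-2 and Mir125b-1 span 50578 bases at chr9:41531425-41582002, inside the long non-coding gene Mir100hg. Mature miR-125b-5p is identical from Mir125b-1 and Mir125b-2, so its signal is a sum over the chromosome 9 and chromosome 16 clusters.

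The probes decide which bases were read, and each member had 2 probes of 20 spots. Each probe is the DNA complement of the 3′ end of its miRNA, and the dimmer probe of each member is 1 base shorter. The probes of the nearly identical miR-99a-5p and miR-100-5p are printed 5′ to 3′, with a capital at the base that differs between the miRNAs.
miR-99a-5p, brighter probe: cacaagAtcggatctacgg
miR-99a-5p, dimmer probe: cacaagAtcggatctacg
miR-100-5p, brighter probe: cacaagTtcggatctacgg
miR-100-5p, dimmer probe: cacaagTtcggatctacg
miR-99b-5p, brighter probe: cGcaagGtcggTtcta
In the last line capitals mark the 3 bases that differ from miR-99a-5p. The brighter probes of miR-99a-5p and miR-100-5p pair with bases 4 to 22 of their miRNAs, and that of miR-99b-5p with bases 7 to 22. No member's probe had an exact site in another mature miRNA among 1679 names (0 found). For each probe of miR-99a-5p or miR-100-5p the other miRNA was 1 mismatch away, while the probes of miR-99b-5p, miR-125a-5p and miR-125b-5p had no other mature miRNA at 1 mismatch (0 found). Whether miR-99a-5p contributed to the miR-100-5p signal, or miR-100-5p to that of miR-99a-5p, was not tested.

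All 5 miRNAs were measured firmly. The spots of their brighter probes averaged 181.9 to 5573 intensity units in tacrolimus arrays and 133.4 to 5536 in control arrays, and 15 to 20 spots per array were kept. Spots of a brighter probe varied within an array by a coefficient of variation of 2.13% to 13.4% (median 5.69%). Signals are given below as log2 of the spot mean after scaling, where 0 is the 75th percentile over the 252 probes that every array detected. Detection of a probe needed a share of 0.5 or more of its kept spots well above background. The brighter probe of every member was detected on 4 tacrolimus and 4 control arrays, and all 5 members passed the filter on dim probes. Levels of different probes are not set against each other, because probes differ in how brightly they bind.

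Over the whole series, 9.60% to 15.2% of mouse probes were detected per array. Pairs of arrays had a Pearson r of 0.987 to 0.997 across the miRNAs that were tested. The arrays of tacrolimus 4, control 1 and control 3 had the widest spread of negative controls (SD 20.01, 10.5 and 9.69, against 4.45 to 5.46 on the others). Tacrolimus 4 also had the lowest share of probes detected (9.60%). On it 7 of 8 quality metrics of the extraction software were in range, against 8 of 8 on every other array. Tacrolimus arrays lay in one row of the slide and control arrays in the other, so an effect of slide row cannot be told apart from that of tacrolimus. Each array had a partner of the other group in its slide column. The tissue label fits the markers: all 4 tubule miRNAs and both endothelial miRNAs were detected on all 8 arrays. The liver marker miR-122-5p was detected on none (0), and of the striated muscle markers 1 was detected on none and the other on 2 tacrolimus and 0 control arrays. The number of arrays limits the precision.

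No member passed the test for a difference between tacrolimus and control kidneys. With limma over all 194 tested miRNAs, 0 of 5 members had an adjusted p under 0.05, against 3.09% of all tested miRNAs. At an unadjusted p under 0.05 there was 1 of 5, miR-100-5p, against 15.5% of all tested. All 5 differences lay above 0, as did 59.3% of all. Their median was 0.11, with a range of 0.020 to 0.20, beside a median of 0.039 over all tested miRNAs. The adjusted p-values ran from 0.301 to 0.899 (limma, Benjamini-Hochberg). Among the 5 intervals (95%), the lowest bound was 0.899-fold and the highest 1.34-fold, so larger changes of these probes lay outside the intervals. Smaller shifts lay inside the interval of at least 1 member, and the smallest shift that 4 arrays in each group can detect was not computed. In whole kidney, fewer cells of a type and less RNA per cell cannot be told apart.

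**Figure D1:**
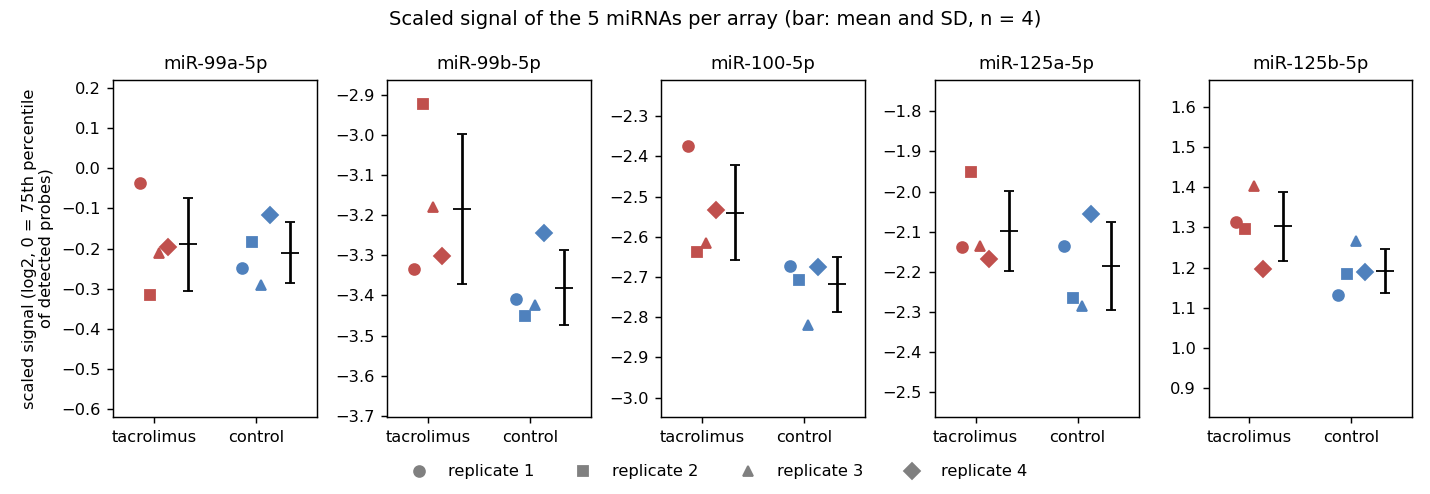
Scaled log2 signal of the 5 miRNAs by their brighter probe, 1 panel each, tacrolimus arrays left of control arrays. Symbols are arrays by replicate number and bars show mean and SD (n = 4). Panels have the same height in log2 units, and only miR-100-5p shows groups that do not overlap.

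In the miR-99 family, miR-100-5p, encoded at Mir100 on chromosome 9, had scaled log2 signals of -2.37, -2.64, -2.61 and -2.53 in tacrolimus arrays 1 to 4, against -2.67, -2.71, -2.82 and -2.67 in control arrays 1 to 4. The tacrolimus arrays were all higher than the control arrays, although the lowest tacrolimus and the highest control array were close. Of the 5 members it was the 1 whose groups did not overlap, against 10.3% of all tested miRNAs, 8.25% with tacrolimus higher and 2.06% with tacrolimus lower. The means were -2.54 ± 0.12 in tacrolimus and -2.72 ± 0.07 in control kidneys (SD, n = 4 each). The difference of 0.18 (SE 0.077, 1.13-fold, 95% interval 1.003 to 1.28-fold) had an adjusted p of 0.301 in limma. By its unadjusted p it stood at rank 29 of the 194.

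The dimmer probe of miR-100-5p gave a larger difference of 0.33 (SE 0.101, 95% interval 0.10 to 0.55). It also missed the threshold, with an adjusted p of 0.167 in limma over 357 tested probes. Its signals were -4.57, -4.72, -4.88 and -4.75 in tacrolimus arrays 1 to 4, against -4.81, -5.16, -5.08 and -5.17 in control arrays. Here tacrolimus 3 lay below control 1, so the groups overlapped. This probe was near the limit of detection: it was not well above background on tacrolimus 4 and control 3, where 11.1% and 21.1% of its spots passed. With the normexp background its difference was 0.035, and this background correction left 0.11 for the brighter probe.

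miR-99b-5p, encoded at Mir99b on chromosome 17, had the largest difference of the 5 by its brighter probe. Its signals were -3.34, -2.92, -3.18 and -3.30 in tacrolimus arrays 1 to 4, against -3.41, -3.45, -3.42 and -3.24 in control arrays. Tacrolimus 2 was the highest of all 8 arrays, control 4 lay among the tacrolimus arrays, and the groups overlapped. The means were -3.19 ± 0.19 in tacrolimus and -3.38 ± 0.09 in control kidneys (SD, n = 4 each). The difference of 0.20 (SE 0.10, 1.15-fold, 95% interval 0.980 to 1.34-fold) missed the threshold, with an adjusted p of 0.402 in limma. Tacrolimus 2 carried much of it: without that array the difference was 0.11. The dimmer probe differed by 0.18 (SE 0.108, adjusted p = 0.491, limma), and by -0.0019 with the normexp background. On tacrolimus 4 this probe was at the limit of detection, with 50% of its spots well above background.

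miR-99a-5p, encoded at Mir99a on chromosome 16, differed least. Its signals were -0.037, -0.32, -0.21 and -0.20 in tacrolimus arrays 1 to 4, against -0.25, -0.18, -0.29 and -0.12 in control arrays. The highest and the lowest of all 8 arrays were tacrolimus 1 and tacrolimus 2, with the control arrays between them. The difference was 0.020 (SE 0.077, 1.01-fold, 95% interval 0.899 to 1.14-fold), with an adjusted p of 0.899 in limma. Its sign is not settled, as it was -0.052 with scaling to the median, -0.032 with quantile normalization, -0.031 without tacrolimus 1 and -0.0069 without control 3. The dimmer probe differed by 0.061 (SE 0.083, adjusted p = 0.762, limma).

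In the miR-125 family, miR-125b-5p was measured with the smallest SE of the 5. Its signals were 1.31, 1.30, 1.40 and 1.20 in tacrolimus arrays 1 to 4, against 1.13, 1.18, 1.26 and 1.19 in control arrays. Control 3 lay above tacrolimus 4, so the groups overlapped, while the other 3 tacrolimus arrays lay above every control array. The means were 1.30 ± 0.09 in tacrolimus and 1.19 ± 0.05 in control kidneys (SD, n = 4 each). The difference was 0.11 (SE 0.068, 1.08-fold, 95% interval 0.971 to 1.20-fold; adjusted p = 0.475, limma). Its dimmer probe differed by 0.026 (SE 0.071, adjusted p = 0.888, limma).

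miR-125a-5p, encoded in the chromosome 17 cluster beside Mir99b, had signals of -2.14, -1.95, -2.14 and -2.17 in tacrolimus arrays 1 to 4, against -2.14, -2.26, -2.29 and -2.06 in control arrays. Tacrolimus 2 stood above the other 3 tacrolimus arrays, and control 4 was the second highest array. The difference was 0.088 (SE 0.080, 1.06-fold, 95% interval 0.937 to 1.20-fold; adjusted p = 0.646, limma), and -0.021 with quantile normalization. Its dimmer probe differed by 0.070 (SE 0.071, adjusted p = 0.691, limma).

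**Figure D2:**
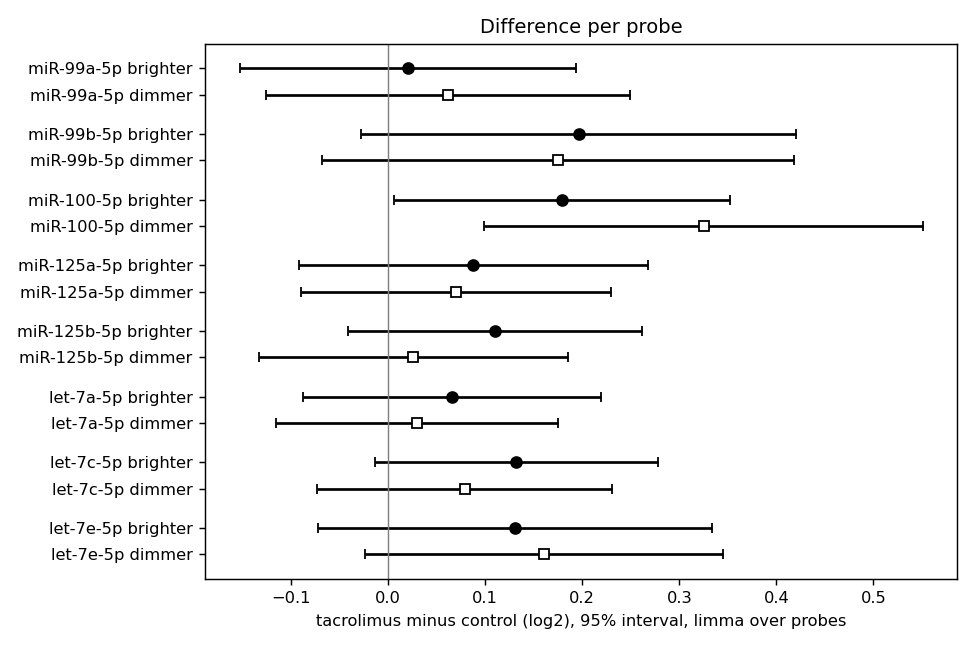
Tacrolimus minus control difference (log2, horizontal axis) for both probes of the 5 miRNAs and of 3 let-7 miRNAs, with 95% intervals from limma over 357 probes. Filled circles are the brighter and open squares the dimmer probe of each miRNA, and the intervals of both miR-100-5p probes lie above 0.

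Across the probes, the differences of all 10 member probes were positive. Their median was 0.099 beside 0.036 over the 357 tested probes, of which 61.3% lay above 0. In limma 0 of 10 passed the threshold, as did 0% of all tested probes. At an unadjusted p under 0.05 there were 2 of 10, both for miR-100-5p, against 14.8% of all. The groups did not overlap for 1 of 10, against 8.68% of all. The 2 probes of a miRNA read the same RNA on the same array and are not replicates. Within the members they differed by up to 0.15 in their estimate, the widest gap being that of miR-100-5p, and both estimates had the same sign for each of the 5.

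**Figure D3:**
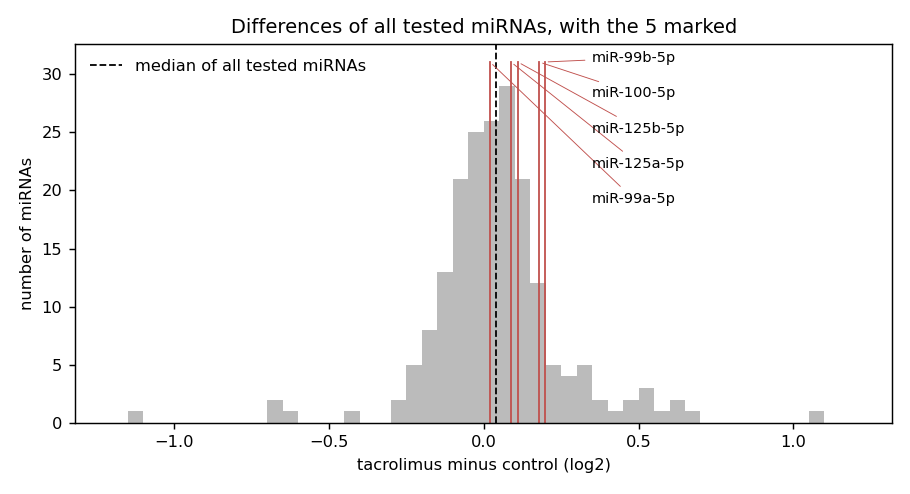
Histogram of the tacrolimus minus control difference (log2) of the 194 tested miRNAs, in bins of 0.05. Red lines mark the 5 members, from 0.020 for miR-99a-5p to 0.20 for miR-99b-5p, and the dashed line marks the median of 0.039.

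The let-7 miRNAs of the same clusters, which restrain growth and are abundant in differentiated tissue, were set beside the members. let-7c-5p, with a gene next to Mir99a and another on chromosome 15, had signals of 3.28, 3.37, 3.31 and 3.30 in tacrolimus arrays 1 to 4, against 3.25, 3.06, 3.19 and 3.22 in control arrays. Its groups did not overlap, as was the case for 10.3% of all tested miRNAs, 8.25% with tacrolimus higher. The adjusted p of its difference, 0.13 (SE 0.065), was 0.379 in limma. By its dimmer probe the groups overlapped, with a difference of 0.079 (SE 0.068, adjusted p = 0.651, limma). let-7e-5p, between Mir99b and Mir125a, stood at -0.24 ± 0.14 in tacrolimus and -0.37 ± 0.11 in control kidneys (SD, n = 4 each), a difference of 0.13 (SE 0.091, adjusted p = 0.540, limma). let-7a-5p, whose genes include Mirlet7a-2 beside Mir100, differed by 0.066 (SE 0.068, adjusted p = 0.657, limma), and by -0.074 with quantile normalization. Of these 3, 0 passed the threshold, against 3.09% of all tested miRNAs, and 0 had an unadjusted p under 0.05 (limma), against 15.5%. Their median difference was 0.13.

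The opposite arms of the hairpins gave almost no signal. Of miR-99a-3p, miR-99b-3p, miR-100-3p, miR-125b-1-3p and miR-125b-2-3p, no probe was detected on any array (0). Of the 4 probes of miR-125a-3p, 1 was detected on 2 tacrolimus and 0 control arrays, and its mean was -5.81 in tacrolimus arrays against -5.96 in control arrays, which is the floor. None of these 6 arms was tested, and no fold is given. The same-seed miR-351-5p, a miRNA of the X chromosome with the sequence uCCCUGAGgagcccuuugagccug, has the miR-125 seed in capitals and a different 3′ end. Of its 4 probes none was detected on any array (0), so these arrays show the CCCUGAG seed through miR-125a-5p and miR-125b-5p alone among the miRNAs named here.

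Differences between 2 members on the same array do not change when an array is scaled by a constant factor (quantile normalization is not such a scaling), and 7 such pairs were set against each other by exact permutation, two-sided, where 4 against 4 arrays allow no p below 0.0286. For miR-100-5p minus miR-99a-5p, the 2 miRNAs that differ by U16A, the log2 difference was -2.34, -2.32, -2.40 and -2.34 in tacrolimus arrays 1 to 4, against -2.42, -2.52, -2.53 and -2.56 in control arrays. By these brighter probes the groups did not overlap, and the shift was 0.16 (-2.35 ± 0.04 in tacrolimus, -2.51 ± 0.06 in control, SD, n = 4 each). The exact permutation p was 0.0286, the smallest possible, and 0.200 adjusted over the 7 pairs. How many of all pairs of tested miRNAs had groups that did not overlap was not counted. With the normexp background the shift was 0.087 (exact permutation p = 0.0571). The exact permutation p was also 0.0571 without any one of the 4 tacrolimus arrays, with shifts of 0.149 to 0.177. By the dimmer probes, of which that of miR-100-5p was near the limit of detection, the groups of this pair overlapped. There tacrolimus 3 had a lower miR-100-5p (-4.88) and a higher miR-99a-5p (-1.74) than control 1 (-4.81 and -1.84). The dimmer probe of miR-100-5p still had the larger difference between tacrolimus and control, 0.33 against 0.061 for that of miR-99a-5p. After adjustment none of the 7 pairs passed (0). miR-99a-5p minus miR-99b-5p shifted by -0.18 (exact permutation p = 0.314), and miR-125a-5p minus miR-99b-5p by -0.11 (exact permutation p = 0.171). Without tacrolimus 1 these 2 shifts were -0.277 and -0.145 (exact permutation p = 0.0286 for each, not adjusted). For each pair that was the 1 setting past 0.05 among 20 alternatives. Of these, the replicate block and the fit without the 3 arrays of widest negative-control spread could give no exact permutation p under 0.05. With other single arrays left out the exact permutation p ran up to 0.657 and 0.314. Between miR-125b-5p and miR-125a-5p the shift was 0.022 (exact permutation p = 0.886), and the sign turned when single arrays were left out.

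Array by array, miR-99b-5p and miR-125a-5p of the chromosome 17 cluster moved together. Over the 8 arrays, miR-99b-5p and miR-125a-5p correlated at a Pearson r of 0.87 (Spearman rho 0.76), and at 0.85 with their dimmer probes. With values centred on the mean of each group, r was 0.85. Without tacrolimus 2 and control 3, the 2 arrays farthest from the median of miR-125a-5p, r was 0.66 over 6 arrays. Over all 18721 pairs of tested miRNAs the median r was 0.13, and 1.20% of pairs reached that of miR-99b-5p and miR-125a-5p. With centred values 2.07% of pairs reached theirs. let-7e-5p, from the gene between them, correlated with miR-125a-5p at 0.82 and with miR-99b-5p at 0.72, and at 0.91 and 0.89 with the dimmer probes. miR-99b-5p and miR-125a-5p also followed let-7c-5p, which lies outside that cluster, at 0.76 and 0.74. The 2 relations of let-7e-5p rested largely on tacrolimus 2 and control 2, without which r was 0.43 and -0.12. All points share the scaling of their array, and the correlations are given as descriptions.

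miR-99a-5p and miR-100-5p lie on different chromosomes. By their brighter probes their r over 8 arrays was 0.68 (rho 0.31), which 8.22% of all pairs reached. With values centred on the mean of each group it was 0.88, which 1.44% of pairs reached. With the dimmer probes it was 0.26 and, centred, 0.048. Without tacrolimus 1 and control 3 the r of the brighter probes was -0.13. Members that share a cluster on chromosome 16 or 9 had lower values by their brighter probes: miR-99a-5p and miR-125b-5p had an r of 0.027 (0.54 with the dimmer probes), and miR-100-5p and miR-125b-5p one of 0.29. The shared-seed pair miR-125a-5p and miR-125b-5p had an r of 0.17, and miR-99a-5p and miR-99b-5p one of -0.29.

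**Figure D4:**
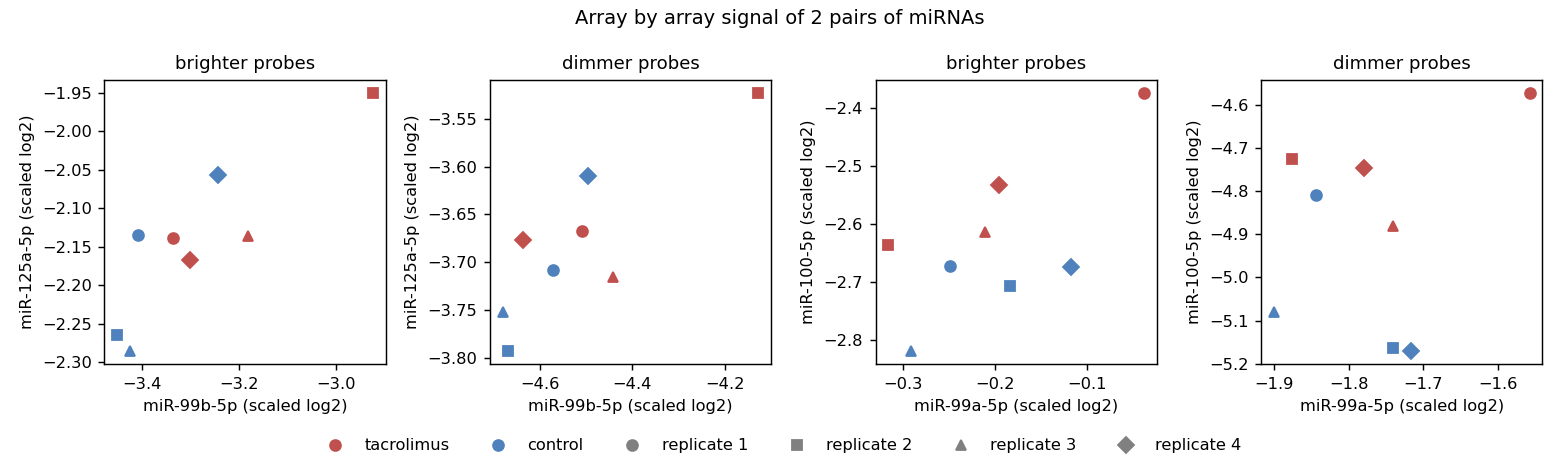
Scaled log2 signal of miR-125a-5p against miR-99b-5p (left pair of panels) and of miR-100-5p against miR-99a-5p (right pair), for brighter and dimmer probes. Each point is an array, red for tacrolimus and blue for control; the left pair of panels shows an r of 0.87 and 0.85, and the right pair 0.68 and 0.26.

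Outside the clusters, the tested miRNAs whose pattern over the 8 arrays was most like that of a member were found by Pearson r. For miR-100-5p they were miR-19b-3p (r 0.87, rho 0.62) and miR-195a-5p (r 0.83, rho 0.81). For miR-125a-5p they were miR-342-3p (r 0.79, rho 0.76) and let-7i-5p (r 0.72, rho 0.38). miR-342-3p was dim, with a mean of -4.18 in tacrolimus and -5.25 in control arrays, where the floor is -5.96. For miR-99b-5p they were miR-24-3p (r 0.78) and miR-28a-5p (r 0.77), and for miR-125b-5p miR-466i-5p (r 0.77) and miR-345-5p (r 0.76). miR-99a-5p had no close companion, with miR-30b-5p at 0.57 and miR-1944 at 0.56 the highest. These are the top of many pairs, with 8 arrays each.

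Markers of other kidney cells were summed per array on the linear scale, in units of the 75th percentile of detected probes. The 4 leukocyte miRNAs summed to 0.598 to 0.871 in tacrolimus arrays and 0.378 to 0.617 in control arrays, and 2 of the 4 were detected on all arrays. The 3 erythrocyte miRNAs summed to 1.88 to 2.50 in tacrolimus arrays and 2.09 to 5.81 in control arrays. The 4 tubule miRNAs summed to 9.71 to 10.5 in tacrolimus and 9.48 to 10.3 in control arrays, the 2 endothelial miRNAs to 3.56 to 3.79 and 3.44 to 4.09, and the 2 vascular smooth muscle miRNAs to 0.342 to 0.405 and 0.345 to 0.384. The ranges of the groups overlapped for each of these sums. The endothelial range of the tacrolimus arrays lay inside that of the control arrays. Their part in the differences of the 5 miRNAs was not tested.

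**Figure D5:**
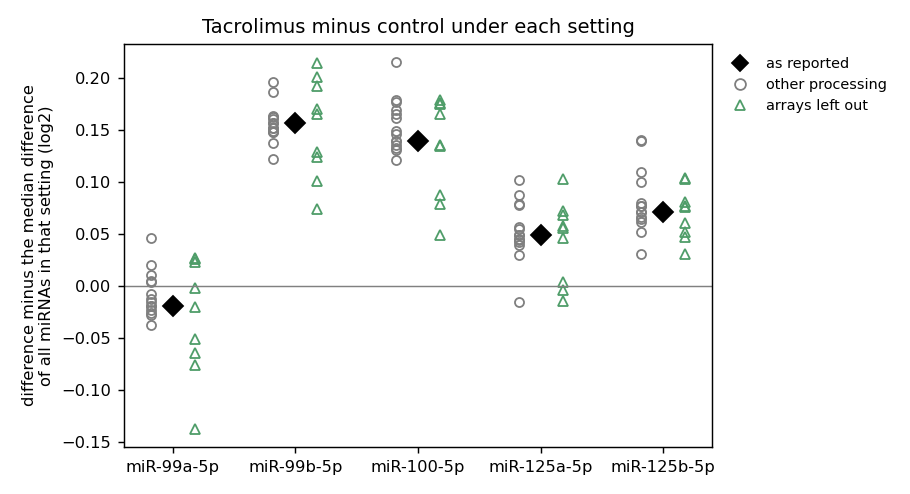
Tacrolimus minus control difference of the 5 miRNAs (log2) less the median difference of all miRNAs in the same setting, for 24 settings. Diamonds are the reported values, circles other processing and triangles fits with arrays left out; miR-99b-5p, miR-100-5p and miR-125b-5p lie above 0 in all 24 settings, miR-125a-5p in 21 and miR-99a-5p in 8.

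Relative to the median of all miRNAs in the same setting, 3 members kept the direction of their difference in all 24 settings that were run. The settings reuse the same arrays and are not independent. Trend and robust estimation and the replicate block leave every difference as reported, so they could not change a direction. Filter and floor settings moved only the median of all miRNAs. Scaling by a constant per array shifts members and median nearly alike. miR-99b-5p lay 0.16 above that median as reported (0.074 to 0.21 over the settings), miR-100-5p 0.14 (0.050 to 0.22) and miR-125b-5p 0.071 (0.031 to 0.14). miR-125a-5p lay 0.049 above it, with a range of -0.015 to 0.10, and miR-99a-5p lay at -0.019, with a range of -0.14 to 0.047. In none of these settings did a member pass the adjusted threshold in limma (0 in each), and the lowest adjusted p of a member in the fit over miRNAs was 0.161, for miR-100-5p with the mean of its probes. In the fit over probes it was 0.0513, for the dimmer probe of miR-100-5p without control 1.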

How the data were processed

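The authors deposited the scanner output of 8 one-colour arrays, extracted by Feature Extraction software (10.7.3.1). According to the headers and values, the deposited spot intensity is linear and not scaled between arrays. The processed intensity equals the spot mean less a spatial surface fitted to the array, with no local background subtracted (tested on the files: the subtracted background equalled that surface in 100% of mouse miRNA spots). For the mouse miRNA spots, every cell (100%) of the authors' deposited value table matches total gene signal as the scanner files give it. Other rows of that table were not compared. limma is named, without a version, in the submitters' processing notes.

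Flagged spots were left out (7.36% to 11.2% of mouse miRNA spots per array; 0 were saturated) and the others averaged per probe. Scaling used, per array, the 75th percentile over the 252 probes that every array detected. A floor was set (-5.96 on the log2 scale) and log2 taken. Each miRNA was read by its brightest probe and entered the test with detection on 4 or more of 8 arrays, which left 194 and put 829 aside. limma 3.58.1 in R 4.3.3 compared the groups, with no covariate, Benjamini-Hochberg adjustment and a threshold of 0.05. The intervals (95%) come from that fit. The limma fit and the permutation test were tested on simulated data, the fit with changes larger than those of the members. The scaling, floor and filter were not tested in this way.

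The members and lists were chosen with earlier results of these data known. Named were the 5 members, their other arms, the let-7 miRNAs of their clusters, array miRNAs with a member's seed, and for each member the 2 outside miRNAs of highest r. The alternatives changed the background, scaling, filter, floor, spots, probe summary, variance estimate, block and arrays. The headers name mouse build mm9; coordinates and sequences are of RefSeq GRCm38.p6.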

Additional observations from a re-analysis of the deposited data

Results flagged for a closer look

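Among 60 groups of 4 arrays examined (members, their dimmer probes, the compared pairs and other named miRNAs), there were 3 in which a single array stood far from the rest, where chance gives about 1 in 20, or 3. miR-125a-5p stood at -1.95 in tacrolimus 2, against -2.17 to -2.14 in the other tacrolimus arrays. miR-345-5p stood at -3.22 in tacrolimus 4, against -3.00 to -2.97 in the other tacrolimus arrays. miR-466i-5p stood at -3.82 in control 3, against -4.37 to -4.31 in the other control arrays. Tacrolimus 4 and control 3 were among the 3 arrays with the widest negative-control spread, whose part in these values was not tested.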

How the results depend on the processing

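No member passed the adjusted threshold in limma under any of the 23 alternatives. The number of all tested miRNAs past it was 6 as reported (6 higher, 0 lower). It was 8 with median scaling (6 higher, 2 lower) and 5 with detection on all 8 arrays (5 higher, 0 lower). With normexp it was 1 (0 higher, 1 lower) and with quantile normalization 2 (2 higher, 0 lower). It was 0 without scaling, with no filter, with scaling to the 75th percentile over every probe, a floor 2 times as high and flagged spots kept. Total gene signal, the mean of probes, the deposited value table, trend and robust estimation, and the replicate block also gave 0. So did the fit without the 3 arrays of widest negative-control spread (a setting chosen after seeing the data). At an unadjusted p under 0.05 these settings gave 2 to 32, and fits with single arrays left out gave 22 to 30. With single arrays left out the number past the adjusted threshold was 0 to 6. The number of probes past it, 0 as reported, was 1 with normexp, 3 with no scaling, 2 with quantile normalization, 7 with detection on all 8 arrays, and 0 to 9 with single arrays left out, and no member's probe passed it in any of these (0). Without scaling, the difference of all tested miRNAs had a median of 0.19, as in the deposited table (0.19). Among the values listed here that changed sign, the largest was 0.13, for miR-30b-5p. miR-99a-5p was -0.052 with median scaling, -0.032 with quantile normalization, -0.027 with total gene signal, -0.037 without the 3 arrays, and -0.031 to 0.062 with single arrays left out. In the fit over probes, where total gene signal was not run, its brighter probe gave the other values alike. miR-125a-5p was -0.021 with quantile normalization. let-7a-5p was -0.0066, -0.074 and -0.0014 with median scaling, quantile normalization and total gene signal. miR-24-3p was -0.0033 with median scaling, miR-28a-5p -0.038 with total gene signal, miR-1944 0.012 with no scaling, and miR-30b-5p 0.13 with no scaling and 0.13 in the deposited table (-0.076 to 0.017 with single arrays left out). The dimmer probes of miR-99b-5p, miR-125a-5p and miR-125b-5p were -0.0019, -0.021 and -0.0095 with normexp. Those of miR-125a-5p, miR-99a-5p and miR-125b-5p were -0.0022, -0.011 and -0.047 with median scaling. Those of miR-99a-5p and miR-125b-5p were -0.0086 and -0.056 with quantile normalization, and those of miR-125a-5p and miR-99a-5p -0.028 and -0.037 with flagged spots kept. That of miR-125b-5p was -0.012 to 0.072 with single arrays left out.

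The replicate number equals the slide column. Same-numbered arrays deviated together at an r of 0.095 to 0.14, and 1 of 4 correlated best with its own number, so the numbers were not taken as pairs; with the replicate block the count was 0 and the shift of miR-100-5p minus miR-99a-5p stayed at 0.16, with an exact permutation p of 0.125, the smallest that 4 pairs allow. That shift also missed 0.05 with normexp (0.087), flagged spots kept (0.16), total gene signal (0.17), the mean of probes (0.21) and the deposited table (0.17). Without the 3 arrays it was 0.19, where 3 tacrolimus against 2 control arrays allow no exact permutation p under 0.05. With single arrays left out it was 0.143 to 0.187, and it missed 0.05 without any one of the 4 tacrolimus arrays (exact permutation p = 0.0571 for each). miR-100-5p minus miR-99b-5p turned to 0.011 with normexp, 0.013 with quantile normalization, 0.013 with total gene signal, 0.067 with the mean of probes and 0.013 in the deposited table (-0.12 to 0.10 with single arrays left out). let-7e-5p minus miR-99b-5p was 0.029 with normexp. miR-125b-5p minus miR-125a-5p was -0.022 with flagged spots kept, -0.011 with the mean of probes and -0.024 to 0.080 with single arrays left out. With single arrays left out, miR-99a-5p minus miR-99b-5p was -0.277 to -0.047 and miR-125a-5p minus miR-99b-5p -0.145 to -0.071. The cause of these changes was not tested. Signal over background limits the dimmer probes of miR-100-5p and miR-99b-5p and the other arms.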
